A study of Mus musculus with 8 samples.

Results

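CD23, the complement receptor gene Cr2 and the Fc receptor-like genes encode surface and intracellular proteins through which B cells sense immunoglobulin, complement and bound antigen. The 7 genes Fcer2a, Cr2, Fcrl1, Fcrl5, Fcrla, Cd55 and Fcer1g were followed by their symbols in the GENCODE M21 annotation, and each matched 1 of the 26589 rows of the deposited table. Bulk RNA-seq covered 8 libraries, 4 from IL-10+ and 4 from IL-10- splenic B cells of mice. All came from IL-10-eGFP Tiger mice, whose reporter marks cells that transcribe Il10, so both groups carry the reporter. All were B cells cultured with LPS (lipopolysaccharide, a ligand of Toll-like receptor 4) at 3 µg/ml for 48 h before the sort on the reporter. The labels give no age, no unstimulated group and no statement of what a replicate number marks (mouse, pool or culture), and a treatment tag that reads untreated stands against the protocols, which were followed here. All p-values rest on library-to-library spread, some of which may be technical.

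CD23 is the low-affinity receptor for IgE, a lectin-like protein that mouse follicular B cells carry at high density and marginal zone B cells at low density, and that the protease ADAM10 sheds from the surface. Mouse Cr2 gives rise to both complement receptors CD21 and CD35 by alternative splicing. CD21 binds antigen coated with fragments of complement C3 and joins CD81 and other proteins in a co-receptor that lowers the threshold of the B cell receptor, and marginal zone B cells carry more of it than follicular cells. Fcrl1 and Fcrl5 are transmembrane members of the Fc receptor-like family with tyrosine motifs that recruit kinases or phosphatases, and Fcrla is a member of the same family that stays inside the cell. CD55 is a lipid-anchored inhibitor of complement convertases. Fcer1g encodes the common γ chain, the signalling subunit of the high-affinity IgE receptor and of several IgG receptors of myeloid, mast and NK cells.

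Totals recovered from the table were 27380398 to 29968287 reads per library. A single read in 1 kb was then worth 0.0334 to 0.0365 FPKM, the deposited unit, which scales reads to gene length and library size. Il10, on which the cells were sorted, was 11.6-fold higher in IL-10+ than in IL-10- cells. The B cell genes Ms4a1, Cd79a, Cd79b, Pax5 and Ighm were detected in every library, but not all at even levels. Ms4a1 stood at 88.1 FPKM in IL-10+ against 133.5 FPKM in IL-10- cells (limma adjusted p = 0.000213). Pax5 stood at 87.2 FPKM in IL-10+ against 150.5 FPKM in IL-10- cells (limma adjusted p = 0.00209). Ighm was 3.74-fold higher in IL-10+ cells (limma adjusted p = 3.07e-05). Cd79a and Cd79b were not called (limma adjusted p = 0.385 and 0.383). With the replicate number as a block, Cd79a was called higher in IL-10+ cells (limma adjusted p = 0.0120) and Cd79b lower (0.0197). In that fit 20.4% of all tested genes were called higher and 33.3% lower. Plasmablast genes also moved with the sort. The 6 markers of that list summed to 1171 to 1231 FPKM in the IL-10+ libraries against 260.5 to 388.6 FPKM in the IL-10- libraries. Of these, 5 of the 5 tested markers were called higher in limma without a block, against 10.6% of all tested genes. In bulk libraries, fewer cells that express a gene and less RNA per cell cannot be told apart. The part of the plasmablast shift in the results below was not tested.

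The DNA before the starts of Fcer2a and Cr2 is shown because Notch signalling through RBPJ is known to act on the mouse Cr2 and human CD23 genes in B cells, and both genes were lower in IL-10+ cells. Each window holds the 250 bases before a RefSeq start of build GRCm38.p6, written 5′ to 3′ on the strand of the gene. The first Fcer2a window (chr8:3694175-3694424, minus strand) ends at the most upstream of 3 annotated starts. The second (chr8:3690862-3691111, minus strand) lies inside the gene, before the next start. The Cr2 window is chr1:195176720-195176969 on the minus strand. Capitals mark matches on either strand to TGGGAA (RBPJ, the DNA-binding partner of Notch), TTCNNNNGAA (STAT6), GAAAGT (Blimp-1, the product of Prdm1) and CAGGTG (E2A).
Fcer2a, first start: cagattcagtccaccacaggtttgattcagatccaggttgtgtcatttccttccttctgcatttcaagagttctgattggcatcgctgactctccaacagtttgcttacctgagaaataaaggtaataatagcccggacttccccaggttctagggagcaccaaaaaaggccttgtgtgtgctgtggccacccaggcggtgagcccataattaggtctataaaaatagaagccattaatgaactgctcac
Fcer2a, second start: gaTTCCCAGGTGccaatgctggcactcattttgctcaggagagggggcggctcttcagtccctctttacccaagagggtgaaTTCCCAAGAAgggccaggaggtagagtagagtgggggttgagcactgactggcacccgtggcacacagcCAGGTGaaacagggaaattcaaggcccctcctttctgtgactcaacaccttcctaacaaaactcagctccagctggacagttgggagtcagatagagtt
Cr2: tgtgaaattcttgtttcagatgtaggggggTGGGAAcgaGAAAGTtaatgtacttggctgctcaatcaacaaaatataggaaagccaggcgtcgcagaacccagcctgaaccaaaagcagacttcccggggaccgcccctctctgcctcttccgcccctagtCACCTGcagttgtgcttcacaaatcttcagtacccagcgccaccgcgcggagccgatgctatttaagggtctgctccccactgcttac
The first Fcer2a window held none of the 4 motifs. The second held the RBPJ motif at 2 places, of which the one nearer to the start overlaps a STAT6 match and the other overlaps a match to the E2A motif. A second E2A match stands 99 bases before that start. The Cr2 window held the RBPJ motif 220 bases before the start, the Blimp-1 motif 211 bases before it and the E2A motif on the other strand 88 bases before it. Of all 32851 windows of this length in the table, 21.6% held the RBPJ motif, 5.85% the STAT6 motif, 12.3% the Blimp-1 motif and 17.2% the E2A motif. Of the 9 windows of the 7 genes, 3 held the RBPJ motif, all of Fcer2a or Cr2. Fcer2a supplied 3 of the 9 windows and so had more places for a match. Its window not shown, before the most downstream start, held the RBPJ motif 205 bases before that start. Among the other genes, Fcrl5 held a Blimp-1 match 136 bases before its start and Fcrla an E2A match 69 bases before its start. Whether these counts differ from those of all windows was not tested. The gene values do not show which Fcer2a start was used, and a match describes letters and not binding.

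Across these genes the sort was marked above all by CD23. Fcer2a was 6.78-fold lower in IL-10+ cells, while Cr2 was 1.67-fold, Fcrl1 1.75-fold and Fcrl5 1.29-fold lower by the ratio of the mean FPKM. Fcrla and Cd55 were lower in each replicate number by smaller amounts, and Fcer1g was close to the limit of detection. Of the 7 genes, 6 reached 1 FPKM in at least 4 libraries and were tested, and 4 fell and none rose at a Benjamini-Hochberg adjusted p under 0.05 in limma on log2(FPKM + 1) over 11329 genes. In that fit 19.7% of all tested genes were called, and 9.18% were called lower. With the replicate number as a block, 6 of the 6 fell, against 53.7% of all tested genes called, 33.3% lower and 20.4% higher. With limma-voom on the recovered reads the same 4 genes fell, where 7.26% of genes were called lower. The 2 groups did not overlap for 4 of the 6 genes, as for 25.2% of all tested genes. The median log2 change of all tested genes was -0.06.

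**Figure D1:**
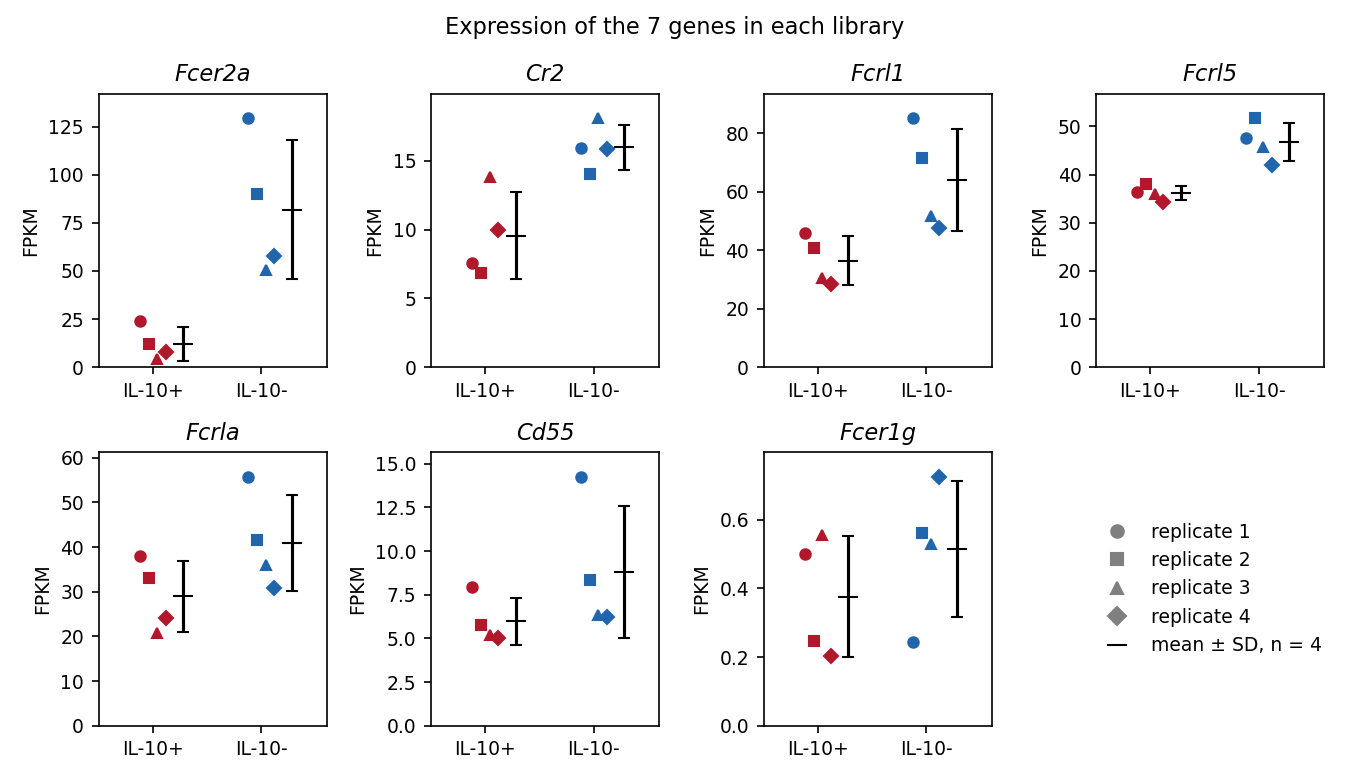
FPKM of each of the 7 genes in each library, with IL-10+ libraries on the left and IL-10- libraries on the right of each panel. Symbols mark replicate numbers, bars show mean ± SD (n = 4), and every axis starts at 0 with its own range. For Fcer2a the IL-10+ libraries sit between 4.39 and 24.2 FPKM and the IL-10- libraries between 50.6 and 129.3 FPKM.

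Fcer2a (ENSMUSG00000005540, GRCm38 chromosome 8, 3681737 to 3694175, minus strand) stood at 24.2, 11.9, 4.39 and 7.74 FPKM in IL-10+ replicates 1 to 4, against 129.3, 89.9, 50.6 and 57.6 FPKM in IL-10- replicates 1 to 4. The groups did not overlap, and the highest IL-10+ library was below the lowest IL-10- library. The means were 12.1 ± 8.68 FPKM in the IL-10+ libraries against 81.9 ± 36.0 FPKM in the IL-10- libraries (SD, n = 4 each). These values rest on 392 to 2053 reads in IL-10+ and 4407 to 11194 reads in IL-10- libraries. Replicates 1 and 2 were above 3 and 4 in both groups, so the spread inside a group was wide. The log2 change was -2.80 (SE 0.473, limma adjusted p = 0.00365), and it was the largest fall of the 11329 tested genes, ahead of Ighd at -2.29. In limma-voom on the recovered reads Fcer2a ranked 2 among the falls of 11321 genes. It stayed called in each of the 8 fits that left out 1 library. Within a replicate number, the level was 5.33-fold, 7.56-fold, 11.5-fold and 7.44-fold lower in the IL-10+ library of numbers 1 to 4. The SE was 0.136 with the replicate block.

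Cr2 (ENSMUSG00000026616, chromosome 1, 195136811 to 195176716, minus strand) stood at 7.60, 6.85, 13.8 and 9.99 FPKM in IL-10+ replicates 1 to 4, against 15.9, 14.1, 18.1 and 15.9 FPKM in IL-10- replicates 1 to 4. The groups came close without overlapping, since IL-10+ replicate 3 lay just under the lowest IL-10- library. The log2 change was -0.73 (SE 0.188, limma adjusted p = 0.0276). This call depended on most of the libraries. It ended without IL-10+ replicate 1 (adjusted p = 0.0647), 2 (0.0669) or 4 (0.0511) and without IL-10- replicate 1 (0.0547), 3 (0.0721) or 4 (0.0606). With the replicate block the adjusted p was 0.00316. Replicates 1 and 2 alone gave a log2 change of -0.96 (adjusted p = 0.00889), and replicates 3 and 4 alone gave -0.49 (adjusted p = 0.0993).

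Cr2 and Fcer2a thus fell by unequal amounts. The ratio of Cr2 to Fcer2a FPKM within a library was 0.313, 0.576, 3.15 and 1.29 in IL-10+ replicates 1 to 4. In IL-10- replicates 1 to 4 it was 0.123, 0.156, 0.357 and 0.275. Within each number, the IL-10+ library had the higher ratio. The groups overlapped, because IL-10+ replicate 1 lay below IL-10- replicate 3. The other cells known for both genes are follicular dendritic cells, and 2 of their 5 listed markers were found in the deposited table. Mfge8 stood at 2.00 ± 0.660 FPKM in the IL-10+ libraries against 1.47 ± 0.278 FPKM in the IL-10- libraries (SD, n = 4 each). It was higher in IL-10+ cells in 4 of 4 replicate numbers (limma adjusted p = 0.320, and 0.0389 with the replicate block). Pdpn was at 0 in every IL-10+ library and at most 0.0196 FPKM in IL-10- libraries.

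**Figure D2:**
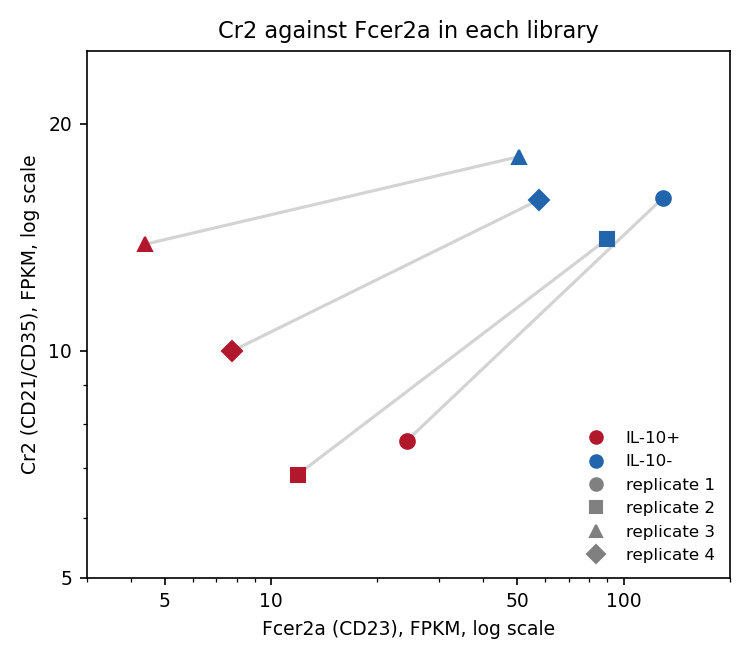
Cr2 against Fcer2a in FPKM for each of the 8 libraries, on log scales, with IL-10+ libraries in red and IL-10- libraries in blue. Grey lines join libraries of the same replicate number, and on every line the IL-10+ library lies below and to the left of its IL-10- library. The lines of replicates 1 and 2 are steeper than those of 3 and 4, where Cr2 was 1.31-fold and 1.59-fold lower in IL-10+ cells.

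The transmembrane Fc receptor-like genes lie next to each other on chromosome 3, 32.8 kb apart. Fcrl1 (ENSMUSG00000059994, 87376387 to 87402934, plus strand), whose product carries activating tyrosine motifs, stood at 45.8, 40.9, 30.5 and 28.6 FPKM in IL-10+ replicates 1 to 4, against 85.1, 71.5, 51.7 and 47.6 FPKM in IL-10- replicates 1 to 4. The groups did not overlap, but IL-10+ replicate 1 was close to IL-10- replicate 4. The log2 change was -0.78 (SE 0.216, limma adjusted p = 0.0356). The call ended without IL-10+ replicate 2 (adjusted p = 0.0575), 3 (0.0969) or 4 (0.0867) and without IL-10- replicate 1 (0.0686) or 2 (0.0943). The difference varied little within replicate numbers, from 1.66-fold to 1.86-fold lower, and with the replicate block the adjusted p was 9.07e-05.

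Fcrl5 (ENSMUSG00000048031, 87435773 to 87500678, plus strand), an inhibitory receptor of marginal zone and B-1 cells, stood at 36.5, 38.0, 35.9 and 34.4 FPKM in IL-10+ replicates 1 to 4, against 47.6, 51.7, 45.7 and 42.1 FPKM in IL-10- replicates 1 to 4. This was a small difference in a gene with little spread, and the groups did not overlap. The coefficient of variation was 4.14% in IL-10+ and 8.56% in IL-10- cells, against 71.9% and 43.9% for Fcer2a in the same groups. The log2 change was -0.36 (SE 0.0751, limma adjusted p = 0.0105), and it stayed called in each of the 8 fits without 1 library. Within replicates 1 and 2 alone the adjusted p was 0.0647, and within 3 and 4 alone it was 0.0283. The ratio of Fcrl5 to Fcrl1 was 0.796 to 1.20 in IL-10+ and 0.560 to 0.885 in IL-10- libraries, and within each number the IL-10+ library had the higher ratio.

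Fcrla and the complement regulator Cd55 did not pass the unblocked test. Fcrla (ENSMUSG00000038421, chromosome 1, 170917576 to 170927583, minus strand) stood at 38.0, 33.1, 20.7 and 24.0 FPKM in IL-10+ replicates 1 to 4, against 55.7, 41.6, 36.0 and 30.7 FPKM in IL-10- replicates 1 to 4. The groups overlapped, and IL-10+ replicates 1 and 2 reached the range of IL-10- replicates 3 and 4. The log2 change was -0.49 (SE 0.228, limma adjusted p = 0.172, and 0.00408 with the replicate block). Cd55 (ENSMUSG00000026399, chromosome 1, 130439027 to 130462744, minus strand) stood at 7.95, 5.76, 5.17 and 5.01 FPKM in IL-10+ replicates 1 to 4, against 14.2, 8.37, 6.35 and 6.25 FPKM in IL-10- replicates 1 to 4. Here IL-10- replicate 1 stood above the other 7 libraries, and the groups overlapped. The log2 change was -0.44 (SE 0.242, limma adjusted p = 0.248, and 0.0104 with the replicate block), and -0.20 without IL-10- replicate 1. Both genes were lower in the IL-10+ library of 4 of 4 replicate numbers, as were 40.4% of all tested genes. An antisense gene, Gm16083, overlaps Cd55, and a pseudogene, Gm2962, overlaps Fcrla, with counting by strand not given in the sources used here.

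**Figure D3:**
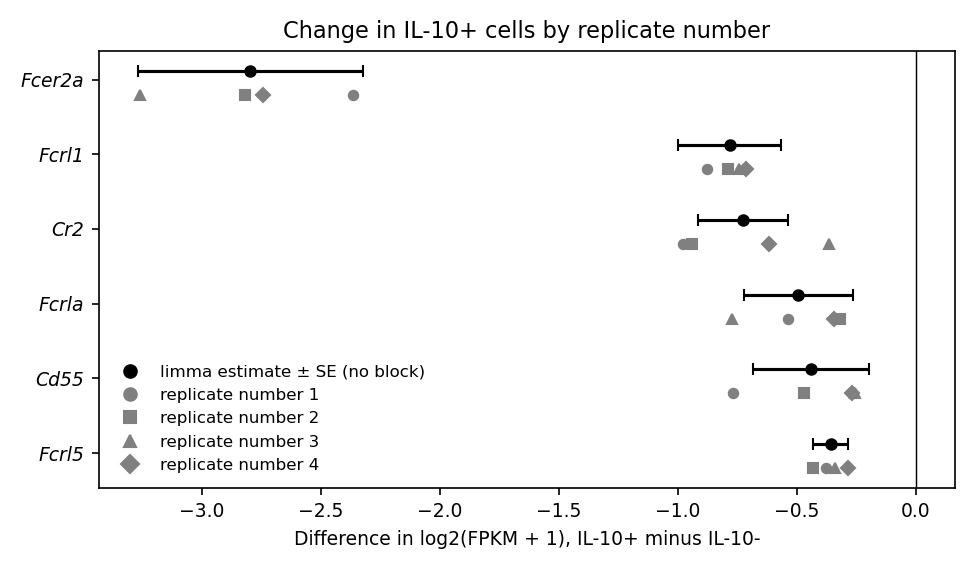
Difference in log2(FPKM + 1), IL-10+ minus IL-10-, for the 6 tested genes. Black points and bars are the limma estimate ± SE without a block, and grey symbols are the differences within each of the 4 replicate numbers, all of which lie below 0. Fcer2a at -2.80 stands apart from the other genes, which lie between -0.78 and -0.36.

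Fcer1g (ENSMUSG00000058715, chromosome 1, 171229572 to 171234365, minus strand) had 12, 6, 14 and 5 reads in IL-10+ replicates 1 to 4, against 6, 14, 13 and 19 reads in IL-10- replicates 1 to 4. In FPKM the mean was 0.377 ± 0.177 in IL-10+ and 0.515 ± 0.200 in IL-10- cells (SD, n = 4 each). The groups overlapped and the replicate numbers split, lower in IL-10+ for 2 and higher for 2. The two-sided exact permutation p was 0.257, and the smallest p that 4 against 4 libraries allow is 0.0286. A difference was not detectable at this depth. The subunit that pairs with the γ chain in the IgE receptor, Fcer1a, was at 0 in all libraries but IL-10- replicate 1, at 0.0716 FPKM. Markers of the cells known for Fcer1g were mostly low. The summed level of the 5 mast cell and basophil markers was 0.0684 to 0.121 FPKM in the IL-10+ libraries against 0.0119 to 0.278 FPKM in the IL-10- libraries, with Fcer1a and Cpa3 at 0 in all IL-10+ libraries. That of the 5 NK cell markers was 0.114 to 0.574 FPKM in the IL-10+ libraries against 0.137 to 0.592 FPKM in the IL-10- libraries, with Nkg7 at 0 in all IL-10+ and Ncr1 and Klre1 at 0 in all IL-10- libraries. The 6 monocyte and macrophage markers summed to 6.52 to 10.5 FPKM in the IL-10+ libraries against 6.99 to 11.4 FPKM in the IL-10- libraries, nearly all of it Cd68, and the other 5 summed to 0.433 to 0.968 FPKM in the IL-10+ libraries against 0.623 to 1.29 FPKM in the IL-10- libraries. The 5 neutrophil markers summed to 0 to 0.472 FPKM in the IL-10+ libraries against 0.0784 to 1.36 FPKM in the IL-10- libraries. The IgG receptor gene Fcgr4 stood at 1.88 ± 0.527 FPKM in IL-10+ against 2.05 ± 0.302 FPKM in IL-10- cells (limma adjusted p = 0.689). Whether these reads of Fcer1g came from B cells was not tested.

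FPKM are scaled by length, so levels can be ordered roughly between genes within a library. The length that gave whole reads was that of all annotated exons, not of the transcript forms expressed. In IL-10+ cells the means in falling order were Fcrl1 (36.5 FPKM), Fcrl5 (36.2), Fcrla (28.9), Fcer2a (12.1), Cr2 (9.57), Cd55 (5.97) and Fcer1g (0.377). In IL-10- cells they were Fcer2a (81.9 FPKM), Fcrl1 (64.0), Fcrl5 (46.8), Fcrla (41.0), Cr2 (16.0), Cd55 (8.81) and Fcer1g (0.515). By these means CD23 stood below the 3 Fc receptor-like genes in IL-10+ cells and above them in IL-10- cells, where IL-10- replicate 3 had Fcrl1 above it. Among neighbours in the IL-10+ order, Cd55 and Fcer1g did not overlap in range, and the other neighbouring pairs did. Among neighbours in the IL-10- order, Fcrla and Cr2, and Cd55 and Fcer1g, did not overlap, and the other neighbouring pairs did.

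The genes also differed in how they followed the replicate numbers, as a description without a test. The mean of replicates 1 and 2 was above that of 3 and 4 for Fcer2a, at 2.98-fold in IL-10+ and 2.03-fold in IL-10- cells, and for Fcrl1, at 1.47-fold in IL-10+ and 1.58-fold in IL-10- cells. Fcrla and Cd55 followed the same direction, at 1.59-fold and 1.35-fold in IL-10+ cells and 1.46-fold and 1.79-fold in IL-10- cells. Cr2 went the other way, with replicates 3 and 4 above 1 and 2 by 1.65-fold in IL-10+ and 1.13-fold in IL-10- cells. Fcrl5 hardly differed, at 1.06-fold in IL-10+ and 1.13-fold in IL-10- cells. Within replicates 1 and 2 alone, Fcer2a, Cr2 and Fcrl1 fell, and 9.76% of all tested genes were called, 2.82% lower and 6.94% higher. Within replicates 3 and 4 alone, Fcer2a, Fcrl1, Fcrl5, Fcrla and Cd55 fell, and 23.4% of all tested genes were called, 12.1% lower and 11.3% higher. The 2 sets were not tested against each other.

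By pattern over the 8 libraries, the non-member genes closest to Fcer2a by Pearson correlation of log2(FPKM + 1) were Trim12a (r = 0.998), Stat6 (r = 0.997) and Washc2 (r = 0.997). Their deviations from the group means also followed those of Fcer2a (r = 0.987 for Trim12a, 0.994 for Stat6 and 0.990 for Washc2). For Cr2 they were Ssna1 (r = 0.960), Sh3bp1 (0.956) and Rap1gds1 (0.955), for Fcrl1 Mta3 (0.996) and Dmac2 (0.996), and for Fcrl5 Nckap1l (0.995), Eif3e (0.993) and Emd (0.989). For Fcrla they were Prr33 (0.996) and Frat1 (0.993), and for Cd55 Smap2 (0.989), Naa60 (0.987) and Helz2 (0.986). Among the genes themselves, the deviations of Fcer2a from the group means correlated at 0.937 with Fcrla, 0.876 with Fcrl1 and -0.761 with Cr2. All these values share the group difference or the replicate numbers of 8 libraries, and the named genes were picked as the highest of all tested.

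Other receptors for immunoglobulin fell or did not pass, and none rose. Of 13 listed Fc receptor genes 6 were tested and 4 fell, Fcer2a included, against 9.18% of all tested genes called lower. With the replicate block 5 fell, against 33.3%. The median log2 change was -0.72, but the list's count and median include Fcamr, which passed the filter on low values only through its IL-10- libraries. Fcgr2b, the inhibitory IgG receptor of B cells, lies 31.0 kb from Fcrla and stood at 49.9 ± 4.55 FPKM in the IL-10+ libraries against 67.9 ± 4.37 FPKM in the IL-10- libraries (SD, n = 4 each; log2 change -0.44, limma adjusted p = 0.00704). Fcamr, a receptor for IgA and IgM, lay between 0.326 and 0.879 FPKM in IL-10+ libraries and between 1.15 and 2.62 FPKM in IL-10- libraries, and in the fit without that filter its limma adjusted p was 0.0276. Trim21, the cytosolic antibody receptor, stood at 5.04 ± 0.489 FPKM in the IL-10+ libraries against 8.07 ± 0.636 FPKM in the IL-10- libraries (limma adjusted p = 0.00132). The IgM receptor gene Fcmr was at 33.9, 21.3, 13.9 and 18.8 FPKM in IL-10+ replicates 1 to 4, against 62.0, 33.3, 33.3 and 32.7 FPKM in IL-10- replicates 1 to 4. Its groups overlapped through IL-10+ replicate 1 (limma adjusted p = 0.0707, and 0.000971 with the replicate block). In the Fc receptor-like family of 6 listed genes, 4 were tested and 2 fell, against 9.18% of all tested genes called lower. These were Fcrl1 and Fcrl5, already given above. The count was 1 in the 5 fits without 1 library that lost Fcrl1. With the replicate block 3 fell, against 33.3%. Fcrlb stood at 1.20 ± 0.351 FPKM in the IL-10+ libraries against 1.69 ± 0.621 FPKM in the IL-10- libraries (limma adjusted p = 0.356). Fcrl6 was listed but was not found by its symbol in the deposited table, so it could not be tested.

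Of the partners of CD21 in its co-receptor and their downstream enzymes, 11 of 12 listed genes were tested and 7 fell, Cr2 included, with none higher and a median log2 change of -0.42, against 9.18% of all tested genes called lower. With the block 9 fell and 1 rose, against 33.3% lower and 20.4% higher. Cd81, a tetraspanin of the co-receptor, stood at 41.9 ± 10.9 FPKM in the IL-10+ libraries against 31.1 ± 8.13 FPKM in the IL-10- libraries (SD, n = 4 each; limma adjusted p = 0.230, and 0.000175 with the replicate block). Its log2 change was 0.42, on the other side of 0 from that of Cr2. The kinase gene Lyn (1.40-fold), the exchange factor gene Vav1 (1.39-fold) and the interferon-induced Ifitm2 (3.50-fold) were lower in IL-10+ cells. Pik3ap1, the adaptor BCAP, was 1.54-fold lower (limma adjusted p = 0.0228), and its call ended without IL-10+ replicate 3 (0.0656), IL-10+ replicate 4 (0.0619) or IL-10- replicate 2 (0.0650). The count of this list fell to 3 without a filter on low values, in replicates 1 and 2 alone and without IL-10+ replicate 4, and to 4 without IL-10+ replicate 3 or IL-10- replicate 2.

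Among the effectors that Fc receptors and Fc receptor-like proteins recruit, 3 of 13 tested genes fell and none rose, with a median log2 change of -0.11. Of all tested genes 9.18% were called lower and 19.7% in either direction. With the block 5 fell and 2 rose, against 33.3% of all tested genes called lower and 20.4% higher. A gene of the list was called higher, beside 3 lower, with either other scaling, in limma-voom and without IL-10- replicate 1. Blnk, an adaptor of the B cell receptor, stood at 68.8 ± 3.00 FPKM in the IL-10+ libraries against 58.3 ± 4.29 FPKM in the IL-10- libraries (SD, n = 4 each; limma adjusted p = 0.0507). Ptpn6, the phosphatase SHP-1 that inhibitory motifs recruit, was at 80.6, 78.4, 66.1 and 78.5 FPKM in IL-10+ replicates 1 to 4, against 145.5, 149.7, 143.0 and 140.5 FPKM in IL-10- replicates 1 to 4. The groups lay far apart (log2 change -0.93, SE 0.0758, limma adjusted p = 7.08e-05). Lyn and the adaptor gene Grb2 were the other 2, and the call of Grb2 (1.29-fold lower, limma adjusted p = 0.0203) ended without IL-10+ replicate 3 (0.0623), IL-10+ replicate 4 (0.0580) or IL-10- replicate 3 (0.0508).

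Several receptor and transcription factor genes that regulate CD23 were lower, and 3 tested genes of the list, Rbpj among them, were not called without the block. The part of Notch signalling was not tested. Of 11 listed genes 9 were tested, and 6 fell and none rose, against 9.18% of all tested genes called lower. The median log2 change was -0.76. With the block 6 fell and 1 rose, against 33.3% lower and 20.4% higher. Il4ra, the interleukin-4 receptor chain, was 1.69-fold lower, Stat6 1.83-fold lower, Notch2 1.73-fold lower, Pax5 1.73-fold lower, Spib 2.22-fold lower and Cd40, which raises CD23 on B cells, 2.04-fold lower. Their limma adjusted p lay between 0.000136 for Cd40 and 0.00835 for Stat6. Adam10, the sheddase, stood at 24.7 ± 0.800 FPKM in the IL-10+ libraries against 22.7 ± 0.601 FPKM in the IL-10- libraries (SD, n = 4 each; limma adjusted p = 0.186, and 0.0277 with the replicate block). Rbpj, whose product binds the motif searched for in the promoters, stood at 3.86 ± 0.577 FPKM in the IL-10+ libraries against 3.94 ± 0.651 FPKM in the IL-10- libraries (log2 change -0.02, SE 0.119, limma adjusted p = 0.924, and 0.664 with the replicate block), and the sign of this difference changed with the scaling. Both Spib and Pax5 were also lower in the IL-10+ library of each replicate number.

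Complement receptors and regulators other than Cr2 that reached the filter on low values did not pass limma on log2(FPKM + 1) without the block. Of 10 listed receptors 4 were tested and only Cr2 fell, against 9.18% of all tested genes called lower. With the block 3 fell and 1 rose, against 33.3% lower and 20.4% higher. The count without the block was 0 in the 6 fits without 1 library in which Cr2 was lost. Itgb2, the β chain of complement receptors 3 and 4, stood at 45.2 ± 2.59 FPKM in the IL-10+ libraries against 38.5 ± 3.25 FPKM in the IL-10- libraries (limma adjusted p = 0.0786, 0.00150 with the replicate block and 0.0452 in limma-voom). Its α chain Itgam stayed below 1 FPKM in every library, at 0.253 ± 0.0613 FPKM in the IL-10+ libraries against 0.535 ± 0.0834 FPKM in the IL-10- libraries. In the fit without a filter on low values Itgam was the 1 complement receptor called (limma adjusted p = 0.0186). C1qbp stood at 84.0 ± 16.3 FPKM in the IL-10+ libraries against 101.1 ± 18.5 FPKM in the IL-10- libraries (limma adjusted p = 0.320, and 0.000994 with the replicate block). Of 6 surface regulators 2 were tested, Cd55 and Cr1l, which encodes the rodent regulator Crry. None passed, against 19.7% of all tested genes called. With the block Cd55 fell, where 33.3% of all tested genes were called lower. Cr1l stood at 8.71 ± 0.488 FPKM in the IL-10+ libraries against 8.05 ± 1.05 FPKM in the IL-10- libraries (log2 change 0.11, limma adjusted p = 0.455), only 5.22 kb from Cr2. Cd46, Cd59a, Cd59b and Cd55b stayed below 1 FPKM in every library.

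**Figure D4:**
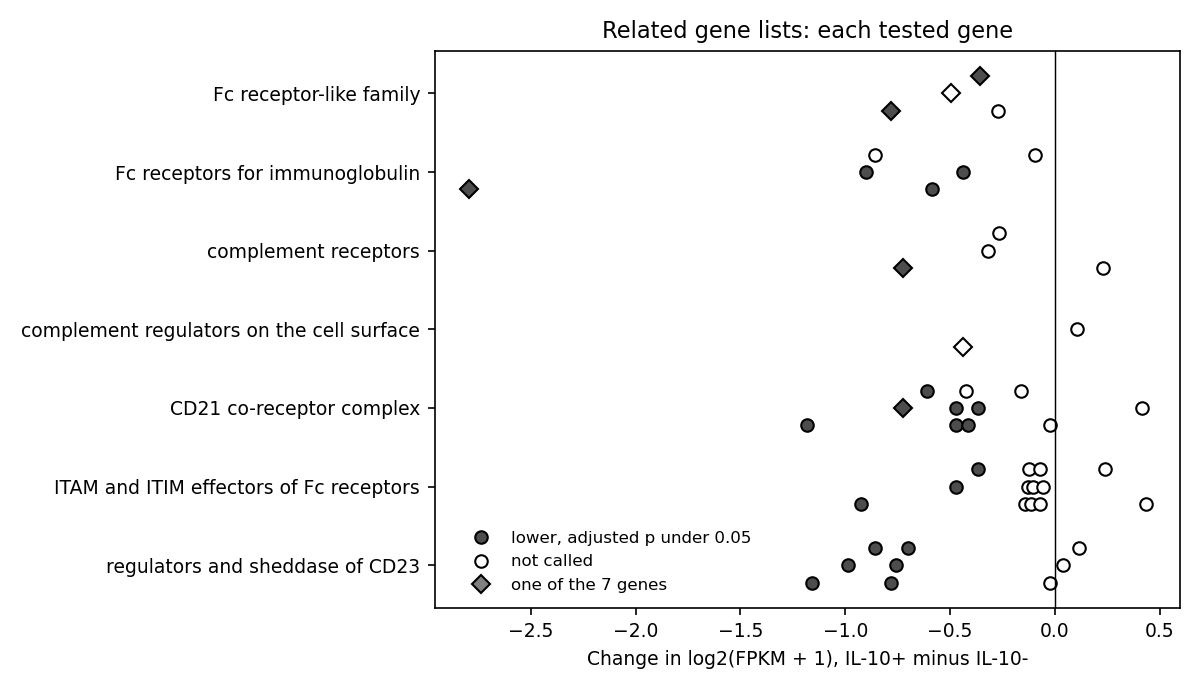
Change in log2(FPKM + 1), IL-10+ minus IL-10-, of each tested gene in the 7 lists of related genes, 1 symbol per gene, filled where the gene was called lower and open where it was not called. Diamonds mark the genes followed here, and some genes stand in more than 1 list. No gene was called higher in the fit without a block, and Fcer2a at -2.80 is the leftmost symbol.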

How the data were processed

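RNA of 8 libraries was profiled, 4 IL-10+ and 4 IL-10-, grouped and numbered by their titles and matched to columns by their descriptions. The deposited table holds FPKM made by the authors, reads scaled to gene length and library size. The submitters' processing notes name HISAT2 2.1.0, HTSeq 0.6.0 and mm10, with annotation release, strand setting and handling of shared reads not given in the sources used here. Names, positions and exon lengths came from GENCODE M21 (GRCm38, the build of mm10), which held 26550 of the 26589 identifiers, and promoter sequences from RefSeq (GRCm38.p6). FPKM multiplied by exon length and a library total gave whole reads within 0.05 for 93.5% to 93.6% of values above 0. No libraries of a group were near-copies (chi-square per degree of freedom of at least 11.7).

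The comparison used limma 3.58.1 (R 4.3.3, variance trend) on log2(FPKM + 1) for genes that reached 1 FPKM in 4 or more libraries, adjusted by Benjamini-Hochberg over all genes tested. Log2 changes on this scale understate those of low genes. Folds are ratios of mean FPKM. The replicate number was left out of this fit and used as a block in an alternative. Same-numbered libraries deviated together from their group means (Pearson r across genes of 0.712, 0.583, 0.621 and 0.700), so the numbers pair the samples. The labels do not say what a number marks. Alternatives were other pseudocounts, filters and scalings, each library left out, replicates 1 and 2 or 3 and 4 alone, and limma-voom on recovered reads.

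The members, lists and rules were chosen with earlier results of these data known. The rule names the members, the 3 most alike genes of each, the nearest protein-coding neighbours and, in each list, up to 4 called genes with the largest change or else the most abundant. Fcmr, Cd81, Notch2, Il4ra, Adam10 and Rbpj were added after their values were seen. Protein sequences were not used here, and some genes that the rule names are not reported here.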

Additional observations from a re-analysis of the deposited data

How the results depend on the processing

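Fcer2a was called in all 20 alternatives and Fcrl5 in 19, all but replicates 1 and 2 alone (adjusted p = 0.0647). The alternatives were other pseudocounts, filters, scalings, the replicate block, each library left out, pairs of replicates alone and limma-voom, and in each of them the 6 tested genes were lower in IL-10+ cells. The log2 change of Fcer2a lay between -3.19 and -2.45 over these, that of Cr2 between -0.96 and -0.49, that of Fcrl1 between -0.91 and -0.63, that of Fcrl5 between -0.41 and -0.31, that of Fcrla between -0.63 and -0.34 and that of Cd55 between -0.62 and -0.20. Without a filter on low values 2 of the 7 genes were called, since Cr2 (adjusted p = 0.0692) and Fcrl1 (0.0858) no longer passed over 26589 genes. Leaving out 1 library gave 2 to 3 called members, with 2 without IL-10+ replicate 2, IL-10+ replicate 4 or IL-10- replicate 1. Across all genes 2236 were called, and 1621 to 2055 when 1 library was left out. The replicate block gave 6083, or 5607 with median-of-ratios scaling and 5666 with scaling that left out immunoglobulin and mitochondrial genes, and replicates 1 and 2 alone gave 1106. The cause of these shifts was not tested. Of 636 values of 32 named genes under the alternatives, 562 kept direction and side of the threshold, 31 lost the call, 33 gained it and 10 changed direction. All 10 were of Rbpj, which was never called. Its log2 change was 0.0133 with median-of-ratios scaling and 0.00580 with scaling that left out immunoglobulin and mitochondrial genes, each with and without the block, 0.0145 in limma-voom and 0.00307 in replicates 3 and 4 alone, and it lay between -0.0885 and 0.0437 when 1 library was left out (0.0420 without IL-10+ replicate 3, 0.00479 without IL-10+ replicate 4, 0.0197 without IL-10- replicate 1 and 0.0437 without IL-10- replicate 2). Of the 7 genes, Fcer1g was the one limited by its read number.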

Other observations

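The protein-coding genes nearest to these loci gave mixed values. Trappc5, whose 3′ end faces that of Fcer2a at a distance of 0.481 kb, fell to 7.27 ± 1.11 FPKM in IL-10+ cells, against 12.8 ± 1.56 FPKM in IL-10- cells (SD, n = 4 each; log2 change -0.74, SE 0.115, limma adjusted p = 0.00228), and was lower in 4 of 4 replicate numbers. On the other side of Fcer2a, Clec4g did not exceed 0.0725 FPKM in any library. Next to Fcrl1, Cd5l stood at 0.272 ± 0.0348 FPKM in the IL-10+ libraries against 0.838 ± 0.141 FPKM in the IL-10- libraries, below the level for testing. In the fit without a filter on low values its limma adjusted p was 0.00268. Next to Fcrl5, Etv3 stood at 11.5 ± 0.682 FPKM in the IL-10+ libraries against 10.2 ± 0.953 FPKM in the IL-10- libraries (limma adjusted p = 0.198, and 0.0145 with the replicate block). Next to Fcer1g, Apoa2 stood at 0.865 ± 0.244 FPKM in the IL-10+ libraries against 0.831 ± 0.367 FPKM in the IL-10- libraries. Cd55 lies 557.1 kb from Il10 on chromosome 1, and its log2 change of -0.44 stands beside 3.25 for Il10. Among receptors too low for testing, Fcgrt, the neonatal Fc receptor, stood at 0.0885 ± 0.0399 FPKM in the IL-10+ libraries against 0.314 ± 0.138 FPKM in the IL-10- libraries, and Pigr, the transporter of polymeric immunoglobulin, at 0.152 ± 0.103 FPKM in the IL-10+ libraries against 0.392 ± 0.128 FPKM in the IL-10- libraries.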
